A study of Mus musculus with 16 samples.

Results

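The time course of gene expression between culture day 2 and day 4 was compared between 2 sets of mouse intestinal organoid libraries in conditioned medium, titled APCCM and WTCM in the labels. The libraries were chosen by those titles. There were 3 APCCM and 3 WTCM libraries on each day, 12 of the 16 in the series, and no measured value entered the choice. The quantity tested for each gene was the label by day interaction, the day 4 minus day 2 log2 change in WTCM minus the same change in APCCM. A positive interaction means that the gene rose more, or fell less, in WTCM than in APCCM.

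All 12 libraries came from C57BL6 crypt cultures grown in a gel matrix with EGF, R-spondin and Noggin. The protocols name 3 mouse lines, which are Lgr5-EGFP-IRES-CreERT2, the same line with Apcfl/fl, and Villin-CreERT2.Apcfl/fl. The Lgr5 promoter drives Cre in crypt base stem cells and the Villin promoter in the whole intestinal epithelium. Recombination was done in culture with 4OH-tamoxifen, so a mutant culture is a recombined line and not a tumour. Wild type organoids carried an mCherry construct and mutant organoids a Venus construct. Conditioned medium had been taken from wild type or Apc-/- organoids and was refreshed with growth factors. The APCCM libraries carry the genotype label Apc mutant and the WTCM libraries the label WT, on both days. The treatment label of all 12 names medium of Apc mutant cultures, while the titles can also be read as naming the source of the medium. The series' design text lists conditioned medium on day 2 alone. Animal age is not given in the sources used here, and nothing says that replicates were separate cultures, so p-values measure the spread between these samples, which may be technical.

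Apc, whose protein holds together the machinery that destroys beta-catenin, measured 265, 239 and 257 CPM (read counts per library size, scaled with TMM) in the APCCM libraries of day 2 and 266, 253 and 252 on day 4. The WTCM libraries measured 245, 239 and 233 on day 2 and 254, 224 and 254 on day 4. The groups overlap on both days, and counts per gene do not show whether an exon was deleted. Notum, a secreted Wnt antagonist that is switched on when Apc is lost, was at most 0.979 CPM in any of the 12 libraries. Nkd1, another target of the pathway, measured 1.11 to 2.06 CPM in APCCM and 3.16 to 4.48 CPM in WTCM. Nkd1 was thus lower in the libraries labelled Apc mutant, and Notum was near the floor in all 12. Whether these levels follow from the genotype was not tested. Because the labels conflict, the groups are called by their titles, APCCM and WTCM, throughout.

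The intestinal epithelium renews itself from crypt base stem cells kept by Wnt signals, next to Paneth cells that secrete antimicrobial proteins. Its cells also answer stress. NF-kB factors are held in the cytoplasm by inhibitor proteins until a signal frees them, and they then switch on chemokines, cytokines and their own inhibitors, so that a response is often brief. Hypoxia-inducible factors are degraded by oxygen-dependent hydroxylases and, when stable, switch on glycolytic enzymes and the hydroxylases themselves. Under such negative feedback, levels can depend on the time of sampling. Whether feedback had a part in these data was not tested.

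Counts assigned to genes ranged from 17986815 to 29152692 over the 12 libraries. Day separated the libraries on the first principal component (29.9% of the variance) and label on the second (25.8%). WTCM day 4 replicate 1 stood apart from the other 2 replicates of its group, with a chi-square of the counts, divided by its degrees of freedom, of 43.9 and 46.4 against 3.49 to 6.55 in every other pair, and 33.3% of its reads had several alignments. Counts of genes that change by over 1.5 times when it, or another single library, is left out are also given without that library. Markers of stromal cells summed to 3.94 to 8.12 CPM per library, with Col3a1, Dcn, Lum, Des and Thy1 at 0 counts in all 12, and 2 of 11 were expressed enough to be tested. Immune cell markers summed to 4.06 to 5.74 CPM, with Cd4 and Cd8a among those at 0 in all 12, and 3 of 12 were tested. Endothelial and neural markers summed to 12.4 to 13.8 CPM in WTCM on day 4 and to 6.21 to 9.25 CPM in the other groups, with Cdh5 and Sox10 among those at 0 in all 12. The receptor gene Ret reached the highest level of these markers, and none of the 4 tested members was called in the interaction. All 9 epithelial markers were tested and summed to 6330 to 7402 CPM.

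Of 14970 genes tested, 641 (4.28%) had an interaction at an adjusted p under 0.05 by the quasi-likelihood test of edgeR (Benjamini-Hochberg), which is what called means below. The interaction was positive for 365 genes (2.44%) and negative for 276 (1.84%). These shares of all tested genes are the background for the counts of called list members below. The lists were chosen with earlier results of these data known, so those counts are descriptions. The interaction reached 2-fold in 50 genes (0.334%), 28 positive and 22 negative, and its median size among called genes was 0.38 on the log2 scale. The median over all tested genes was 0.01. Many more genes differed between the days, 4769 (31.9%) in WTCM and 4698 (31.4%) in APCCM. The titles of the day 2 libraries have another form than those of day 4, and their sample numbers form separate blocks. Any difference between these blocks cannot be told apart from day. Day changes of at least 2-fold were called for 2.34% of genes in WTCM and 2.69% in APCCM, and label differences of that size for 1.96% on day 2 and 1.77% on day 4. As a background for statements on overlap, the 3 libraries of each day did not overlap for 44.1% of genes in WTCM and 42.4% in APCCM, and those of each label for 36.6% on day 2 and 37.1% on day 4. The 2 day changes share no library, and over all tested genes their Pearson correlation was 0.62, a description across genes that are not independent. The plot of both day changes shows the called genes as bands on either side of the diagonal.

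**Figure D1:**
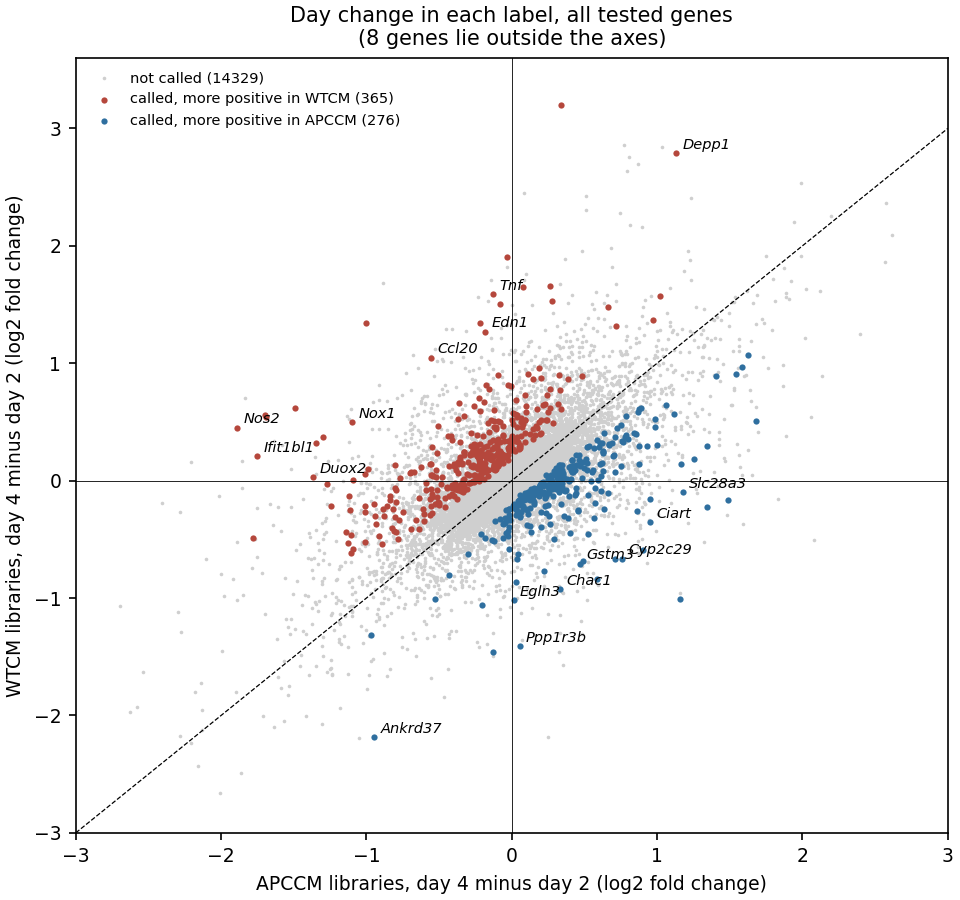
Day 4 minus day 2 log2 fold change in the APCCM libraries (x axis) and in the WTCM libraries (y axis) for every tested gene, with 8 genes outside the axes. Red marks the 365 genes called with a positive interaction, blue the 276 with a negative one, grey the rest, and the dashed line marks equal change. Nos2, Tnf and Ccl20 lie above the diagonal, Ankrd37, Ppp1r3b and Egln3 below it.

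The called genes were sorted by which day change was itself called, with the same threshold in each label. In 422 of the 641 the day change was called in a single label. In these classes, alone means that the change in the other label was not called, which does not show that it was absent. Among these, 121 rose in WTCM alone, 64 fell in WTCM alone, 118 rose in APCCM alone and 119 fell in APCCM alone. The 2 labels moved in opposite directions in 82 genes, of which 56 rose in WTCM and fell in APCCM and 26 did the reverse. In 133 genes both labels moved the same way to different extents, and in 4 neither day change was called. Since every one of these tests draws on the same 12 libraries, the classes describe the shape of an interaction and add no evidence for it.

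The label difference was called on day 2 alone for 246 of the 641 genes, on day 4 alone for 215, on both days in the same direction for 118, on both days in opposite directions for 51, and on neither day for 11. Over all tested genes, 3683 (24.6%) were called on day 2 and 3322 (22.2%) on day 4. Differences that were called on day 2 alone had a median size of 0.33 on that day and 0.07 on day 4 (log2), and those called on day 4 alone 0.07 and 0.35. Of the 118 with the same direction on both days, the difference was smaller on day 4 in 66 and larger in 52.

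Early differences were closed in several ways. Of the 133 genes that were higher in APCCM on day 2 alone, 46 fell in APCCM alone, the shape that a transient course would have. Another 48 rose in WTCM alone, the shape of a delayed course, while 18 did both. With 2 days and no sample before day 2, neither course can be shown. Of the 113 that were higher in WTCM on day 2 alone, 28 fell in WTCM alone, 44 rose in APCCM alone, and 29 rose in both. Late differences likewise arose from either label. Of the 131 genes higher in WTCM on day 4 alone, 47 fell in APCCM alone, 41 rose in WTCM alone and 20 did both. Of the 84 higher in APCCM on day 4 alone, 47 rose in APCCM alone and 15 fell in WTCM alone.

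**Figure D2:**
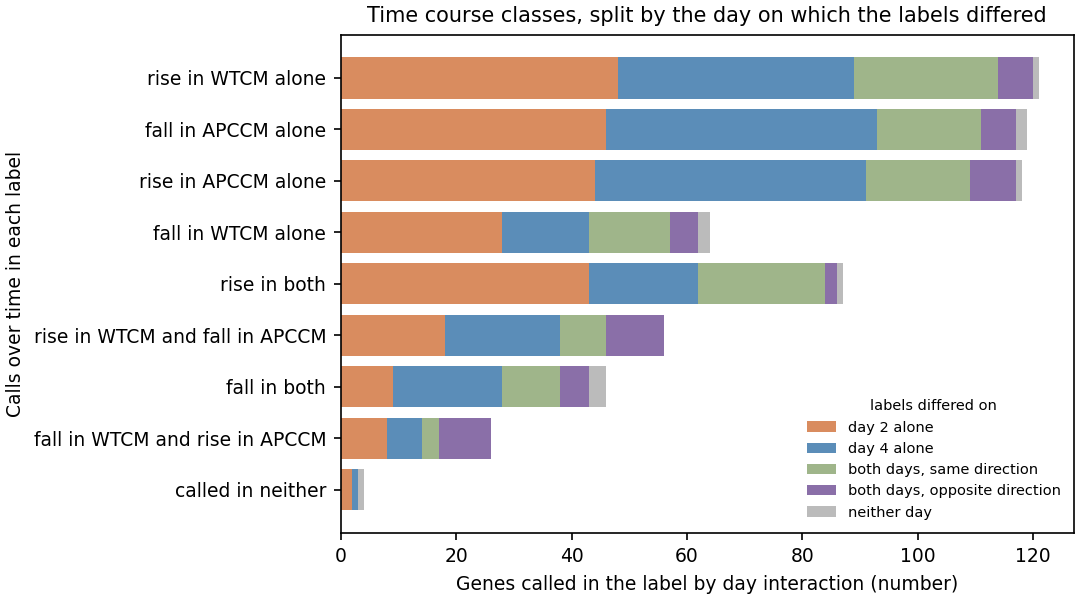
Number of genes called in the label by day interaction (x axis) in each class of day change (y axis), with colours for the day on which the labels themselves differed. The bars of single-label changes hold 121, 119, 118 and 64 genes, and differences on day 2 alone and on day 4 alone occur in each of them.

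NF-kB and chemokine genes had the largest positive median of the lists. All 11 tested members (of 15) had an interaction above 0, 9 were called, all positive, and their median was 0.80 against 0.01 over all genes. In WTCM 10 of the 11 rose with day (16.5% of all genes rose), whereas in APCCM 2 rose and 3 fell (15.5% and 15.9% of all genes). On day 2 10 of the 11 were lower in WTCM than in APCCM (12.8% of all genes), and on day 4 5 were lower and 1 higher (11.1% in each direction). The summed level of the tested members was 351 to 381 CPM in APCCM on day 2 and 353 to 374 on day 4, and 184 to 195 CPM in WTCM on day 2 and 318 to 363 on day 4. The WTCM sums rose from well below the APCCM range on day 2 to overlap it on day 4. Without single libraries 8 or 9 members were called.

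Sequences before the start sites of Ccl20, a chemokine gene, and Nfkbia, an inhibitor gene, are shown as examples in which a kB-type motif lies. They are the 250 bases before the start from the RefSeq promoter table of build GRCm38.p6, 5′ to 3′ on the gene's strand. Capitals mark GGGA, any 4 bases and then CC, searched on both strands, where matches on the 2 strands can overlap. Ccl20 (chr1:83116516-83116765, plus strand) has a match starting at position -81 from the start, and Nfkbia (chr12:55492648-55492897, minus strand) at -212 and -29.
Ccl20: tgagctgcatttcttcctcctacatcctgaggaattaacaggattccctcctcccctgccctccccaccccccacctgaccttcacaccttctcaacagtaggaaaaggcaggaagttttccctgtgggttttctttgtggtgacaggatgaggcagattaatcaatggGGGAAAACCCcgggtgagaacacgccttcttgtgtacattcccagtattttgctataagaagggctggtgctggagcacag
Nfkbia: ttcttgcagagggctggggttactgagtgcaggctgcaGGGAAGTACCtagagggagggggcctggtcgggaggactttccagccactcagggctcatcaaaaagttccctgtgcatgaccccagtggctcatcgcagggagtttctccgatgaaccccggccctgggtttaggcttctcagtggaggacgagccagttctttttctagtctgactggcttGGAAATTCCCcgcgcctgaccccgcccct
Of the 11 tested members 8 had an entry in the table, and 7 of these had a match within the 300 bases from 250 before to 50 after a start. All 6 called members with an entry had one. A match occurred in 20.7% of all 32851 promoters and for 30.3% of the 10047 tested genes with an entry. A match is a description of the letters in this window and shows no binding. The list was made of genes of this pathway, so its share of matches describes the list and not the interaction.

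Ccl20 (ENSMUSG00000026166, chr1:83116766-83119167), which encodes a chemokine that attracts CCR6-bearing immune cells, measured 20.9, 22.3 and 20.8 CPM in APCCM on day 2 and 15.1, 12.3 and 15.8 on day 4. In WTCM it measured 7.54, 6.33 and 7.11 CPM on day 2 and 15.8, 14.8 and 13.1 on day 4. The labels do not overlap on day 2, where APCCM is higher, and overlap on day 4. Its interaction was 1.61 ± 0.14 (log2, SE, n = 3 per group, adjusted p = 3.4e-09), from a rise of 1.05 in WTCM and a fall in APCCM (-0.56).

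Tnf, the cytokine tumour necrosis factor, stayed level in APCCM, at 7.41, 8.52 and 7.44 CPM on day 2 and 6.28, 7.10 and 7.86 on day 4, with the groups overlapping. In WTCM it went from 1.82, 1.64 and 1.65 CPM to 5.98, 5.64 and 4.05. The rise in WTCM was 1.59 and the interaction 1.72 ± 0.22 (log2, adjusted p = 3.3e-06). On day 4 every WTCM library was still below every APCCM library (adjusted p = 0.014).

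Zc3h12a, outside the list, which encodes an RNase that degrades cytokine transcripts, also rose in WTCM alone, at a higher level. It measured 45.3, 46.6 and 50.2 CPM in APCCM on day 2, 44.8, 45.6 and 49.2 on day 4, 30.1, 29.7 and 29.5 in WTCM on day 2, and 54.3, 50.9 and 51.7 on day 4. The WTCM libraries passed from below to above all APCCM libraries, and the label difference was called on both days with opposite sign. Its interaction was 0.84 ± 0.08 (adjusted p = 9.5e-09). Relb and Nfkb2, subunits of the alternative NF-kB pathway, had interactions of 0.56 ± 0.09 and 0.51 ± 0.09, and their day changes in APCCM were 0.01 and 0.00. Tnfaip3, a ubiquitin-editing inhibitor of the pathway, went from 21.1 to 23.1 CPM over the WTCM libraries of day 2 to 36.1 to 48.6 on day 4, with an interaction of 0.80 ± 0.12.

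Nfkbia, which encodes the inhibitor that holds NF-kB in the cytoplasm, rose in both labels. It measured 70.8, 80.8 and 78.8 CPM in APCCM on day 2 and 127, 120 and 130 on day 4, and 47.2, 44.0 and 46.8 CPM in WTCM on day 2 and 123, 108 and 113 on day 4. The labels are apart on day 2 and overlap on day 4. The rise was 1.32 in WTCM and 0.71 in APCCM (interaction 0.60 ± 0.08, adjusted p = 2.5e-06).

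Cxcl16, a membrane-bound chemokine, kept the same order of labels on both days. It measured 37.0, 41.0 and 40.3 CPM in APCCM on day 2 and 35.6, 32.7 and 35.1 on day 4, against 18.0, 13.8 and 14.0 and then 24.6, 23.3 and 25.4 CPM in WTCM. No WTCM library reached an APCCM library on either day, and the difference narrowed from -1.36 to -0.50 (interaction 0.87 ± 0.11, adjusted p = 3.0e-06). Birc3 and Icam1 were the tested members that were not called, with interactions of 0.08 ± 0.09 and 0.03 ± 0.68. Cxcl1, a neutrophil chemokine, was called at levels of few counts, 0.192 to 0.721 CPM outside WTCM day 2 and at most 0.0966 CPM in it.

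Nos2, the inducible nitric oxide synthase and a member of the list above, measured 68.0, 70.1 and 63.2 CPM in APCCM on day 2 and 17.2, 15.5 and 21.2 on day 4, while WTCM measured 7.02, 8.16 and 9.61 and then 13.2, 11.7 and 9.42. APCCM was higher than WTCM in every library on both days, and its lead shrank. It fell in APCCM (-1.89) and rose in WTCM (0.45). The log2 label difference went from -3.02 to -0.68, and the interaction of 2.34 ± 0.19 (adjusted p = 2.6e-06) was the largest among the genes that reached 5 CPM.

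Duox2, an epithelial oxidase that releases hydrogen peroxide, measured 21.3, 27.2 and 25.3 CPM in APCCM on day 2 and 8.73, 9.84 and 9.90 on day 4. WTCM stayed at 8.28, 7.68 and 7.63 and then 8.91, 8.31 and 7.12 CPM. Only the APCCM libraries of day 2 stand apart, and the other 3 groups overlap or lie side by side. Its interaction was 1.40 ± 0.15 (adjusted p = 1.4e-07), with a day change of 0.03 in WTCM and -1.37 in APCCM. Duoxa2, the maturation factor of this oxidase, chosen after its values were seen, fell likewise from 4.34, 6.16 and 4.42 to 1.06, 1.81 and 1.68 CPM in APCCM (interaction 2.26 ± 0.35).

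Nox1, the NADPH oxidase of the colon epithelium, crossed over. It measured 19.0, 16.1 and 17.8 CPM in APCCM on day 2 and 8.87, 6.51 and 9.18 on day 4, and 11.3 ± 2.70 CPM (SD, n = 3, highest 14.4) in WTCM on day 2 and 18.2, 13.2 and 16.8 on day 4. APCCM was above WTCM in every library on day 2 and below it in every library on day 4. The interaction was 1.60 ± 0.24 (adjusted p = 0.0017). Noxa1, its activator subunit, also chosen after its values were seen, rose in WTCM (0.19) and fell in APCCM (-0.22) (interaction 0.42 ± 0.08).

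Edn1, the precursor gene of the peptide endothelin-1, was low in WTCM on day 2 alone. Depp1, a gene induced by FOXO factors, was lower on day 2 than on day 4 in both labels, and lowest in WTCM on day 2. Edn1 measured 5.33, 5.46 and 7.07 CPM in that group and 12.6 to 16.5 CPM in the 9 other libraries (interaction 1.45 ± 0.16, adjusted p = 1.4e-07). Depp1 rose in both labels, from 1.21, 1.40 and 1.37 to 9.43, 8.27 and 9.77 CPM in WTCM and from 4.58, 3.90 and 3.79 to 8.41, 8.86 and 9.66 CPM in APCCM (interaction 1.65 ± 0.21, adjusted p = 3.0e-06). For both genes the labels were apart on day 2 and overlapped on day 4. Csf1, a macrophage growth factor chosen after its values were seen, rose in WTCM from 1.74 ± 0.408 CPM to 5.53 ± 0.603 (SD, n = 3), without overlap (interaction 1.39 ± 0.26).

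**Figure D3:**
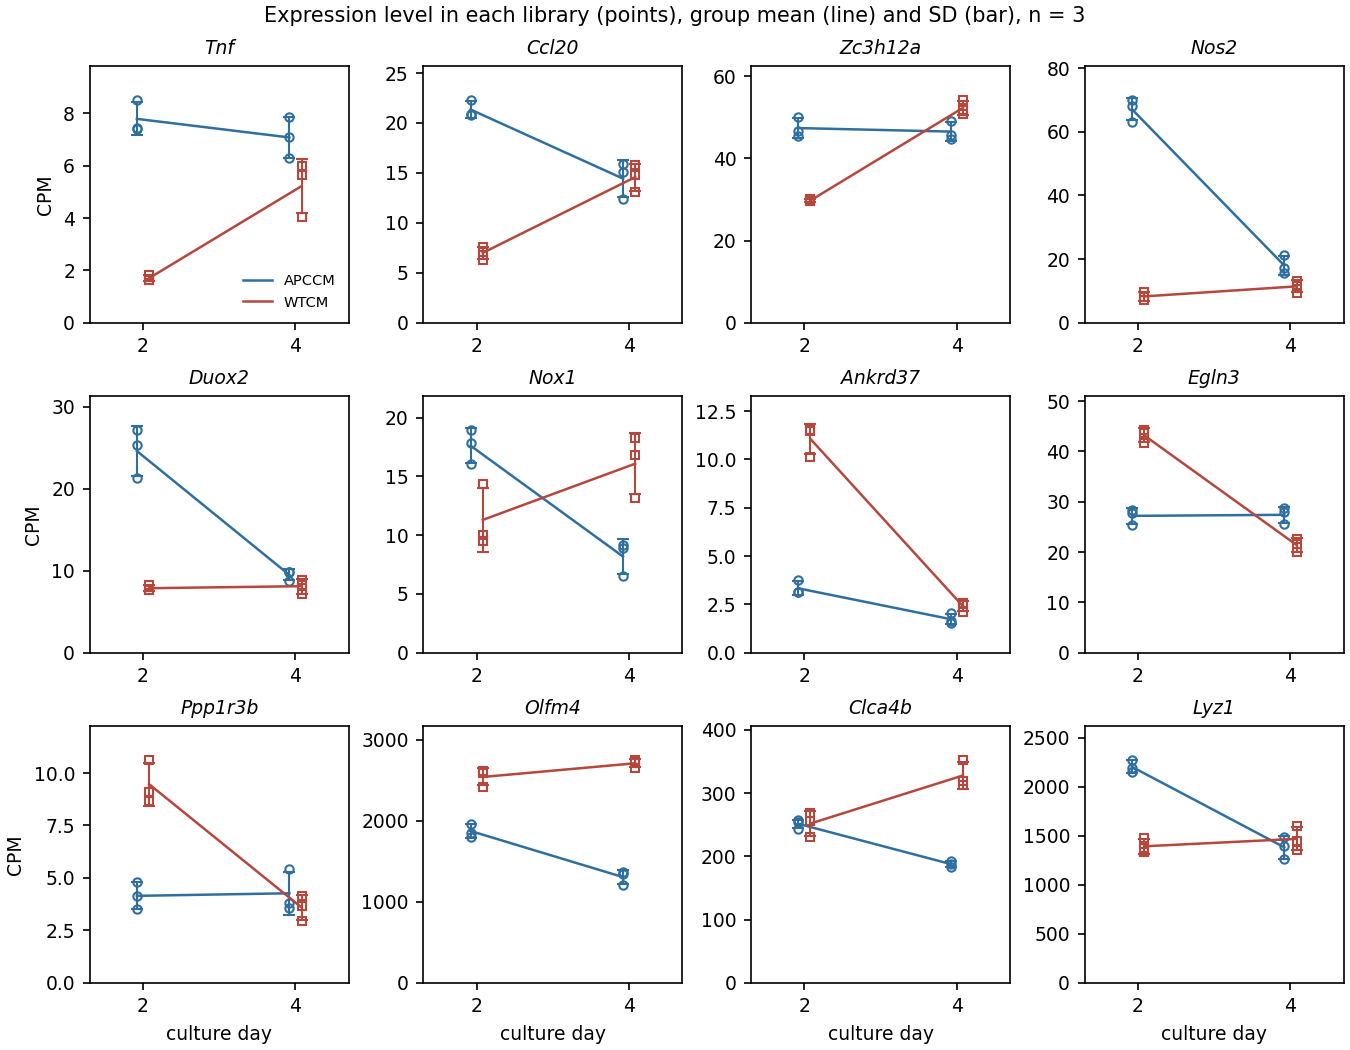
CPM (y axis, starting at 0) on culture days 2 and 4 (x axis) for 12 genes, with 1 point per library, lines through the group means and bars of 1 SD (n = 3). Nos2 and Duox2 drop in APCCM, Tnf and Zc3h12a rise in WTCM, Ankrd37, Egln3 and Ppp1r3b drop in WTCM, and Olfm4 and Clca4b diverge.

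Hypoxia and glycolysis genes moved the other way. All 24 listed members were tested, all 24 had an interaction below 0, 14 were called, all negative, and the median was -0.35. In WTCM 19 fell and 1 rose with day (15.3% and 16.5% of all genes). In APCCM 4 fell and 5 rose (15.9% and 15.5%). On day 2 21 of the 24 were higher in WTCM (11.8% of all genes) and none lower. On day 4 11 were higher and 2 lower (11.1% in each direction). The summed level was 3275 to 3301 CPM in APCCM on day 2 and 3424 to 3608 on day 4, and 4721 to 4875 CPM in WTCM on day 2 and 4178 to 4385 on day 4. The WTCM sums stayed above the APCCM sums on both days, by less on day 4. The members called numbered 11 to 16 when single libraries were left out.

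Ankrd37 and Egln3, the listed members with the largest negative interactions, are shown with the 250 bases before their start in the same table. Capitals mark ACGTG, the core of the site that hypoxia-inducible factors are known to bind, on both strands, where the strands' matches overlap in the palindrome CACGTG. Ankrd37 (chr8:45999851-46000100, minus strand) has matches starting at -241 and -6, and Egln3 (chr12:54203875-54204124, minus strand) at -229.
Ankrd37: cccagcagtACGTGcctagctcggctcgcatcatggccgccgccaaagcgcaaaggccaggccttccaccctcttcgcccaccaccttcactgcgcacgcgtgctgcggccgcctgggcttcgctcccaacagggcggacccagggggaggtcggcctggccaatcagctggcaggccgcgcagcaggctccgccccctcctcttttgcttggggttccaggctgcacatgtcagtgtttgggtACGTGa
Egln3: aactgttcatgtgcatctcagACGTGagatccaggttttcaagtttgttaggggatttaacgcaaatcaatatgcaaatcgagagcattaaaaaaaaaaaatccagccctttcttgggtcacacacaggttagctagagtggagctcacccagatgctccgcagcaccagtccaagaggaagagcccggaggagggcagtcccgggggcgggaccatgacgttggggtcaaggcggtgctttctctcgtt
A match within the 300 bases was found for 16 of the 22 tested members with an entry and 9 of the 12 called ones. The core is short, and 19.6% of all promoters and 29.1% of the tested genes with an entry hold it. The share was 75.0% of the called members and 72.7% of the tested ones. This list too was made for its pathway, so these shares describe the list and not the interaction.

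Ankrd37 (ENSMUSG00000050914, chr8:45996902-46005707), a known target of hypoxia-inducible factor, fell in both labels. It measured 11.5, 10.1 and 11.5 CPM in WTCM on day 2 and 2.11, 2.59 and 2.55 on day 4, against 3.12, 3.13 and 3.74 and then 2.03, 1.66 and 1.52 CPM in APCCM. WTCM was above APCCM in every library on both days, by a wide margin on day 2 alone. The fall was 2.18 in WTCM on the log2 scale, and the interaction was -1.24 ± 0.24 (adjusted p = 0.00096).

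Egln3, an oxygen-sensing prolyl hydroxylase, measured 44.3, 43.6 and 41.7 CPM in WTCM on day 2 and 21.4 ± 1.35 (SD, n = 3) on day 4. APCCM measured 25.5, 27.8 and 28.3 CPM on day 2 and 28.7, 25.6 and 28.0 on day 4, so its groups overlap. The WTCM libraries passed from above all APCCM libraries to below them, with label differences of 0.67 and -0.36, both called. The interaction was -1.03 ± 0.10 (adjusted p = 8.7e-09).

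Glycolytic enzymes changed less. Aldoa, the aldolase, measured 758, 735 and 788 CPM in WTCM on day 2 and 585, 646 and 607 on day 4, and 438, 453 and 462 and then 483, 461 and 461 CPM in APCCM (interaction -0.37 ± 0.06, adjusted p = 7.2e-05). Ldha, lactate dehydrogenase, rose by 0.16 in APCCM, with a day difference of -0.09 in WTCM that was not called (interaction -0.25 ± 0.06). In both genes WTCM had the higher level on both days. Gapdh fell from 31.3, 33.7 and 34.3 to 15.6, 16.4 and 15.6 CPM in WTCM and from 20.9, 17.6 and 21.6 to 17.7, 17.3 and 17.1 in APCCM (interaction -0.85 ± 0.11). Its level is uncertain, since near-identical copies elsewhere in the genome take reads with several alignments.

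Vegfa, the vascular growth factor, rose in APCCM alone, and Ndrg1, a stress-induced gene of the same list, rose more in APCCM. Vegfa measured 79.4, 72.3 and 75.8 CPM in APCCM on day 2 and 93.1, 96.7 and 94.1 on day 4, while WTCM stayed within 90.4 to 98.6 CPM (interaction -0.35 ± 0.06, adjusted p = 0.00067). Ndrg1 rose in both labels, by 0.69 in APCCM and 0.21 in WTCM (interaction -0.48 ± 0.06). Ppp1r3b, a glycogen-targeting subunit of protein phosphatase 1 outside the list, was highest in WTCM on day 2. It measured 9.10, 10.6 and 8.67 CPM there on day 2 and 2.97 to 5.43 CPM in the 9 other libraries, which overlap each other (interaction -1.46 ± 0.23, adjusted p = 8.2e-05).

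**Figure D4:**
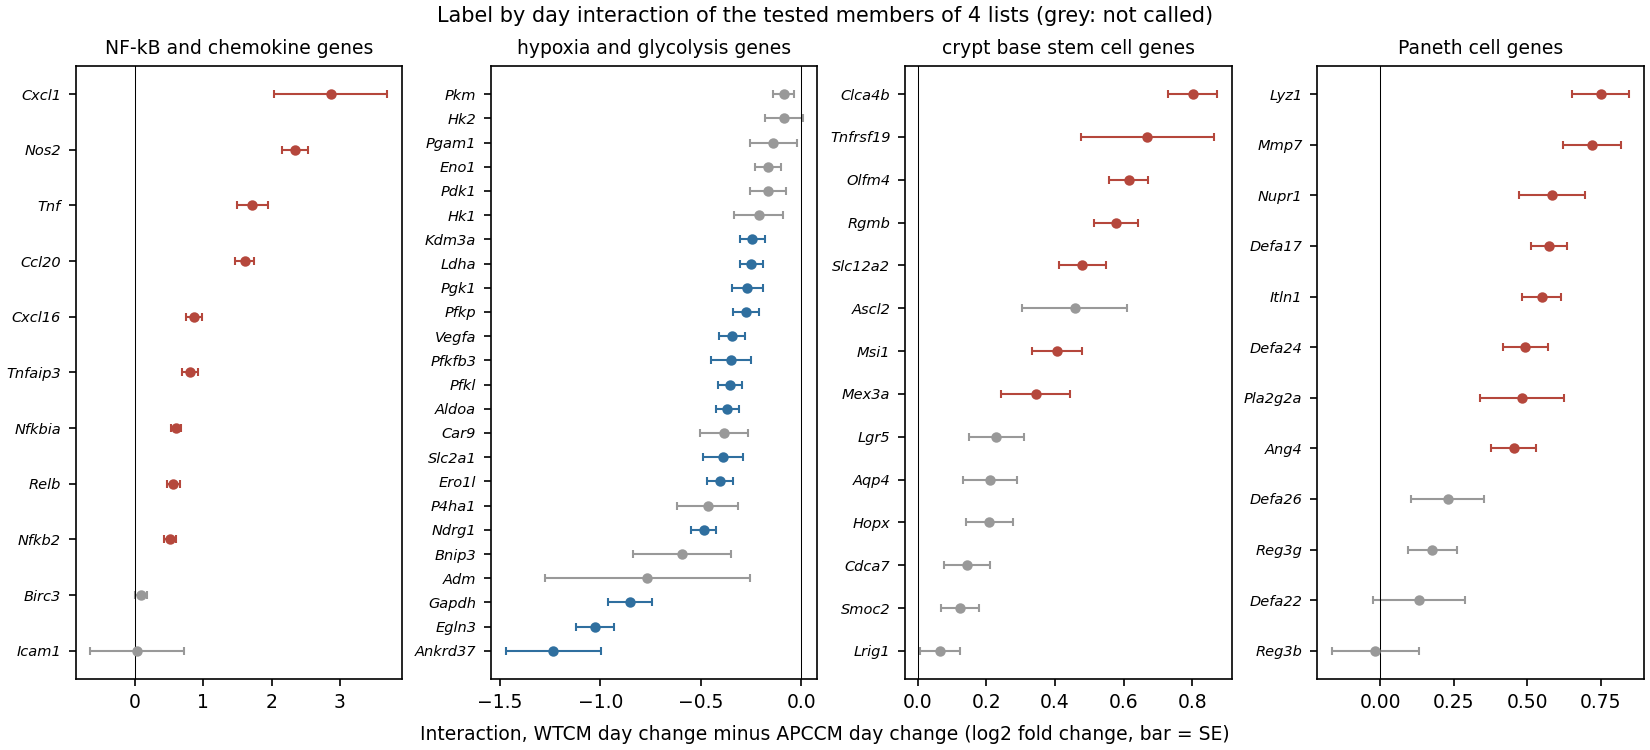
Label by day interaction (log2 fold change, x axis, bars of 1 SE) of each tested member of 4 gene lists, with red for called positive, blue for called negative and grey for not called. All 11 NF-kB and chemokine genes lie above 0 and all 24 hypoxia and glycolysis genes below it, while 7 of 14 stem cell genes and 8 of 12 Paneth cell genes were called, all positive.

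Crypt base stem cell genes had positive interactions, and most fell in APCCM. All 14 listed members were tested, all had a positive interaction, 7 were called and the median was 0.38. With day, 13 of the 14 fell in APCCM and none rose (15.9% and 15.5% of all genes). In WTCM 6 fell and 2 rose (15.3% and 16.5%). The labels differed more on day 4 than on day 2. On day 4 12 members were higher in WTCM (11.1% of all genes). On day 2 5 were higher and 2 lower (11.8% and 12.8%). The summed level was 5124 to 5211 CPM in APCCM on day 2 and 3896 to 4170 on day 4, and 5776 to 6109 and then 6213 to 6654 CPM in WTCM. In these bulk libraries fewer cells of a type and less RNA per cell cannot be told apart. The called members numbered 5 to 11 when single libraries were left out, and 11 was reached without WTCM day 4 replicate 3.

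Olfm4, a secreted glycoprotein and marker of these stem cells, measured 1854, 1962 and 1805 CPM in APCCM on day 2 and 1368, 1209 and 1339 on day 4. In WTCM it measured 2420, 2608 and 2594 CPM on day 2 and 2752, 2725 and 2652 on day 4. WTCM was higher in every library on both days, and the difference widened from 0.44 to 1.05 (interaction 0.61 ± 0.06, adjusted p = 5.1e-08). Clca4b, of the chloride channel accessory family, started level, at 244, 254 and 257 CPM in APCCM and 231, 269 and 256 in WTCM. On day 4 it stood at 189, 183 and 192 CPM in APCCM and 312, 353 and 318 in WTCM, without overlap (interaction 0.80 ± 0.07, adjusted p = 8.7e-09).

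Slc12a2, a sodium, potassium and chloride cotransporter enriched in crypts, likewise overlapped on day 2, at 1450 to 1626 CPM over both labels. On day 4 it measured 1366, 1235 and 1352 CPM in APCCM and 2013, 1916 and 1757 in WTCM (interaction 0.48 ± 0.07, adjusted p = 0.00012). Rgmb, a BMP co-receptor, fell in both labels, from 156 to 167 CPM to 86.6 to 95.8 in APCCM and from 176 to 183 CPM to 146 to 159 in WTCM (interaction 0.58 ± 0.06). Lgr5, the R-spondin receptor that defines these cells, was not called. Its levels were 96.9 to 107 and 88.9 to 91.9 CPM in APCCM and 131 to 155 and 143 to 163 CPM in WTCM, for an interaction of 0.23 ± 0.08 (adjusted p = 0.12). Lgr5 was called under 2 of 19 alternatives, with an adjusted p of 0.0361 without WTCM day 4 replicate 3 and 0.0198 with no filter.

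Of 19 tested Wnt/beta-catenin targets (of 20), 7 were called, all positive, with a median of 0.25. Here 12 fell with day in APCCM and none rose (15.9% and 15.5% of all genes). In WTCM 6 fell and 1 rose (15.3% and 16.5%). Between the labels, 7 were higher and 3 lower in WTCM on day 2 (11.8% and 12.8% of all genes). On day 4 11 were higher and 1 lower (11.1% in each direction). Axin2, a feedback inhibitor of the pathway, fell in both labels, from 267, 258 and 242 to 179, 162 and 178 CPM in APCCM and from 315, 333 and 331 to 276, 265 and 259 CPM in WTCM. The labels do not overlap on either day, and the interaction was 0.27 ± 0.06 (adjusted p = 0.0083). Cd44, an adhesion receptor, differed on day 2, when APCCM was higher, and not on day 4 (interaction 0.31 ± 0.07, adjusted p = 0.0032). Rnf43, a ligase that removes Wnt receptors, was called on day 4 alone, with WTCM higher (interaction 0.25 ± 0.06). The count for this list depended on single libraries. It was 2 without WTCM day 4 replicate 1, 3 without APCCM day 4 replicate 2, and 4 without APCCM day 2 replicate 2 or 3, WTCM day 2 replicate 1 or 2, or APCCM day 4 replicate 1. Axin2 lost its call without APCCM day 2 replicate 1 (adjusted p = 0.0504) or APCCM day 4 replicate 2 (0.0523). Rnf43 lost its call without APCCM day 2 replicate 3, WTCM day 2 replicate 1 or WTCM day 4 replicate 1. The list shares Ascl2, Lgr5 and Tnfrsf19 with the stem cell list, and Tnfrsf19 was called.

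Paneth cell genes had a median interaction of 0.49. Of 12 tested members 8 were called, all positive, 11 of the 12 estimates lay above 0, and 7 or 8 were called when single libraries were left out. On day 2 8 members were lower in WTCM and none higher (12.8% and 11.8% of all genes). On day 4 4 were lower and 3 higher (11.1% in each direction). Their summed level was 6230 to 6847 CPM in APCCM on day 2 and 6050 to 6327 on day 4, and 4540 to 4684 CPM in WTCM on day 2 and 5878 to 6775 on day 4. The WTCM sums were lowest on day 2 and reached the APCCM range on day 4.

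Within this list the courses differed from gene to gene. Lyz1, the Paneth cell lysozyme, fell in APCCM, from 2146, 2273 and 2187 to 1489, 1258 and 1398 CPM, while WTCM measured 1373, 1329 and 1473 and then 1594, 1359 and 1450 CPM (interaction 0.75 ± 0.10, adjusted p = 0.00076). APCCM on day 2 stands apart, and the other 3 groups overlap. Mmp7, the protease that activates defensins, fell from 105, 110 and 112 to 61.1, 65.2 and 62.0 CPM in APCCM and measured 51.7 ± 0.904 and then 49.2 ± 7.63 CPM in WTCM (SD, n = 3) (interaction 0.72 ± 0.10). Itln1, a lectin that binds microbial sugars, instead rose in WTCM, from 1212, 1247 and 1265 to 1972, 1708 and 1844 CPM, and stayed within 1233 to 1379 CPM in APCCM (interaction 0.55 ± 0.07, adjusted p = 7.7e-06). Defa17, an alpha-defensin, crossed over, from 526, 554 and 500 to 450, 444 and 485 CPM in APCCM and from 399, 409 and 406 to 545, 501 and 531 CPM in WTCM (interaction 0.57 ± 0.06). The defensin genes have near-identical copies, so the split of reads between them is uncertain.

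The goblet, enteroendocrine and absorptive enterocyte lists had few calls, all positive in the fit of all 12 libraries. Over all tested genes 4.28% were called, and counts this small are not read as results about these lists. All 11 tested goblet cell genes had a positive interaction, with a median of 0.35, and Spink4, a goblet cell peptide gene, was the member called (0.57 ± 0.07, adjusted p = 2.5e-06). The goblet count was 3 by DESeq2, 2 without WTCM day 2 replicate 1 or APCCM day 4 replicate 3, and 4 without WTCM day 4 replicate 2. It measured 393, 396 and 358 CPM in APCCM and 301, 270 and 267 in WTCM on day 2, apart, and 308 to 335 and 331 to 363 CPM on day 4, overlapping. Of 17 tested enteroendocrine genes 2 were called, both positive, 13 estimates lay above 0 and 4 below, and the median was 0.36. Tph1, the enzyme of serotonin synthesis in enterochromaffin cells, rose in both labels, from 14.4 to 16.7 CPM to 25.2 to 31.8 in WTCM and from 29.9 to 31.1 CPM to 38.7 to 42.0 in APCCM (interaction 0.48 ± 0.11). A single enteroendocrine call was left without any 1 of 7 libraries, APCCM day 2 replicate 2 or 3, WTCM day 2 replicate 1 or 3, APCCM day 4 replicate 2 or 3, or WTCM day 4 replicate 2. Of 22 tested absorptive enterocyte genes 2 were called, both positive, with a median of 0.10, and DESeq2 called 4 positive. Among the 22 estimates 13 lay above 0 and 9 below. Without APCCM day 2 replicate 2, 2 negative members were called, and without WTCM day 2 replicate 3, 1 was. Apoa4, an apolipoprotein of lipid absorption, rose in WTCM from 407 to 441 CPM to 613 to 646 and stayed within 259 to 338 CPM in APCCM (interaction 0.49 ± 0.09, adjusted p = 0.0062). The other, the glucose transporter gene Slc5a1, lost its call without any 1 of the APCCM day 2 libraries or without WTCM day 2 replicate 1 or 3.

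Interferon-stimulated genes separated the labels without a called change in that separation. All 17 tested members were lower in WTCM on day 2 and 15 on day 4 (12.8% and 11.1% of all genes). None was called in the interaction by edgeR, 6 had an unadjusted p under 0.05, all positive, none was called by DESeq2, and the median was 0.32. The share of all genes under that unadjusted limit was not counted, so the 6 are not read as a result about the list. A single member was called, as positive, with a replicate block, with no filter, and without WTCM day 2 replicate 2 or APCCM day 4 replicate 2. In APCCM 7 of the 17 fell with day and none rose (15.9% and 15.5% of all genes). In WTCM 1 rose and 1 fell (16.5% and 15.3%). Irf7, a transcription factor of the response, measured 23.2 to 25.7 and then 17.2 to 23.4 CPM in APCCM and 5.32 to 6.72 and then 5.41 to 6.78 CPM in WTCM, and its interaction was 0.32 ± 0.16 (adjusted p = 0.36). Ifit1 measured 0.35 to 0.58 CPM in WTCM on day 2 and 0.30 to 0.52 on day 4, while in APCCM it fell from 4.44, 5.61 and 5.18 to 1.80, 2.59 and 2.40 CPM.

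Ifit1bl1, a relative of Ifit1 that is outside the list and was called, measured 16.2, 18.0 and 15.7 CPM in APCCM on day 2 and 3.56, 4.85 and 6.27 on day 4, and 2.25 to 3.86 CPM in WTCM over both days. APCCM on day 2 stands far above all other libraries (interaction 1.96 ± 0.24, adjusted p = 2.9e-06). Ly6e, also outside the list, an interferon-induced surface protein that restricts viral entry, fell in APCCM alone, from 271, 296 and 281 to 192, 185 and 198 CPM, with WTCM within 192 to 217 CPM on both days (interaction 0.61 ± 0.07, adjusted p = 1.4e-07). Ifitm3, an interferon-induced membrane protein outside the list, fell in both labels, from 61.4 to 72.9 CPM to 35.6 to 36.9 in APCCM and from 51.3 to 55.9 CPM to 42.2 to 48.4 in WTCM (interaction 0.65 ± 0.08). The Ifit and Ifitm families hold similar copies, so these levels are uncertain.

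Metabolic stress lists had negative medians. Of 18 tested ATF4 and amino acid response genes, 5 were called negative and 1 positive, with a median of -0.16. Chac1, which degrades glutathione and is a marker of the ATF4 response, measured 11.4, 8.60 and 10.4 CPM in WTCM on day 2 and 5.67, 5.17 and 5.24 on day 4. In APCCM it measured 7.66, 9.02 and 7.97 and then 10.1, 10.2 and 10.7 CPM. Chac1 crossed over. WTCM was higher on day 2 (0.31, adjusted p = 0.042) although the libraries overlap, and APCCM was higher on day 4 without overlap (interaction -1.26 ± 0.16, adjusted p = 3.0e-06). Trib3, a pseudokinase that restrains ATF4, rose in APCCM from 9.26, 9.02 and 7.97 to 16.4, 15.1 and 16.5 CPM, and WTCM measured 12.9 to 15.2 CPM over both days (interaction -0.73 ± 0.13). Slc7a5, the large amino acid transporter, rose in APCCM (0.24) and fell in WTCM (-0.13) (interaction -0.37 ± 0.07). The positive call was Nupr1, a stress-induced chromatin protein that the Paneth list also holds, which rose in WTCM from 20.2 to 24.3 CPM to 29.0 to 35.0 (interaction 0.58 ± 0.11).

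Cholesterol synthesis genes had 6 of 22 members called, all negative, with 21 of the 22 below 0 and a median of -0.19. Lss, which closes the sterol ring, measured 179, 198 and 197 CPM in APCCM on day 2 and 204, 218 and 212 on day 4, and 222, 234 and 239 CPM in WTCM on day 2 and 191, 208 and 219 on day 4. The labels are apart on day 2, with WTCM higher, and overlap on day 4. Lss rose in APCCM (0.15) and fell in WTCM (-0.17), for an interaction of -0.31 ± 0.07 (adjusted p = 0.0042). The count was 2 without WTCM day 2 replicate 3 or WTCM day 4 replicate 1, and 3 without APCCM day 4 replicate 1.

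Of 13 tested oxidative stress (NRF2) genes 4 were called, all negative, 12 of the 13 lay below 0 and the median was -0.29. Gclc, the rate-limiting subunit of glutathione synthesis, measured 142, 138 and 139 CPM in APCCM on day 2 and 170, 158 and 163 on day 4, and 131, 122 and 117 and then 109, 98.3 and 112 CPM in WTCM. APCCM was higher in every library on both days, by more on day 4 (interaction -0.44 ± 0.07, adjusted p = 6.6e-05). Srxn1, which repairs oxidised peroxiredoxins, rose in APCCM from 46.5 to 54.3 CPM to 57.8 to 66.9 and measured 39.3 to 45.1 CPM in WTCM over both days (interaction -0.40 ± 0.09). Gstm3, a glutathione transferase outside the list, started level, at 368, 360 and 329 CPM in APCCM and 404, 363 and 315 in WTCM. On day 4 it measured 475, 517 and 468 CPM in APCCM and 199, 215 and 248 in WTCM, without overlap (interaction -1.17 ± 0.15, adjusted p = 0.0020).

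Gene families of detoxification were counted after their values had been seen, so their counts are descriptions. All 6 called of 10 tested Cyp2c genes were negative, as were the 7 called of 13 Ugt genes and the 5 called of 13 carboxylesterase genes, with medians of -0.42, -0.39 and -0.47. Over all 27 tested Cyp2 genes 10 were called negative and 1 positive (median -0.31), and of 11 aldo-keto reductase genes 3 were called, all negative (median -0.08). Of 20 glutathione S-transferase genes 4 were called negative and 1 positive (median -0.07). Cyp2c55, a cytochrome P450 that oxidises fatty acids, crossed over, from 92.1, 84.0 and 87.0 to 138, 126 and 125 CPM in APCCM and from 109, 107 and 99.4 to 88.2, 86.3 and 78.4 CPM in WTCM (interaction -0.88 ± 0.07, adjusted p = 2.8e-09). Akr1c19, an aldo-keto reductase, did the same, with label differences of 0.38 on day 2 and -0.38 on day 4 (interaction -0.76 ± 0.07). Cyp2c29 measured 102, 97.3 and 86.0 and then 182, 160 and 141 CPM in APCCM, and 183, 163 and 125 and then 98.7, 106 and 93.1 CPM in WTCM (interaction -1.42 ± 0.21, adjusted p = 0.0074). Members of these families are close in sequence, so reads shared between them make single levels uncertain.

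Several genes opened a difference on day 4 that was not called on day 2. Jun, an AP-1 transcription factor and 1 of 2 immediate early genes called among 19 tested, measured 57.0, 55.2 and 48.9 CPM in APCCM on day 2 and 33.4, 32.4 and 33.4 on day 4, with WTCM within 54.7 to 64.1 CPM on both days (interaction 0.77 ± 0.08, adjusted p = 1.7e-07). Ces1d, a carboxylesterase, rose in both labels, from 52.0 to 52.9 CPM to 89.5 to 99.1 in APCCM and from 53.3 to 62.2 CPM to 68.5 to 71.6 in WTCM (interaction -0.58 ± 0.07). Ddc, the decarboxylase that makes dopamine and serotonin, rose in APCCM from 85.8 to 90.1 CPM to 112 to 118 and measured 85.3 to 98.3 CPM in WTCM over both days (interaction -0.45 ± 0.07, adjusted p = 3.0e-05). Ccn1, a matrix protein and 1 of 3 YAP targets called among 9 tested, all positive, rose in WTCM from 4.38, 4.44 and 5.32 to 7.88, 6.99 and 6.53 CPM (interaction 0.81 ± 0.19).

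Clock genes were mixed, with 3 of 16 called negative and 1 positive and a median of -0.05. The positive count was 0 without APCCM day 4 replicate 2. Ciart, a repressor of the clock, rose in APCCM from 3.75, 2.86 and 3.07 to 5.68, 6.66 and 6.47 CPM, while WTCM measured 4.47, 4.83 and 4.62 and then 3.35, 3.69 and 3.80 (interaction -1.30 ± 0.21, adjusted p = 8.6e-05). The order of the labels is reversed between the days without overlap on either. Bhlhe40, another repressor of the clock, rose in APCCM from 88.9 to 93.3 CPM to 124 to 138 and stayed within 122 to 129 CPM in WTCM (interaction -0.55 ± 0.06). The hour of harvest is not given in the sources used here, and its part in these values was not tested. Slc28a3, a nucleoside transporter, rose in APCCM from 3.27, 3.24 and 2.50 to 6.70, 6.41 and 7.19 CPM up to the WTCM level of 5.31 to 7.92 CPM over both days (interaction -1.27 ± 0.20). Upk3b, a uroplakin gene with the largest negative estimate of the named genes (-1.49 ± 0.42, adjusted p = 0.044), was at 0.39 to 7.21 CPM and lost its call without 8 of the 12 libraries, those being APCCM day 2 replicates 2 and 3, WTCM day 2 replicates 1 and 3, APCCM day 4 replicates 1 and 2, and WTCM day 4 replicates 1 and 3.

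Smaller counts, several of which rest on single libraries, were found in the remaining lists that had a call. Over all tested genes 4.28% were called, and counts this small are not read as results about the lists. Of 16 p53 targets 2 were called positive and 1 negative, of 9 retinoid genes 2 positive and 1 negative, of 17 unfolded protein response genes 2 negative, of 17 ribosome biogenesis genes 2 negative, of 16 fatty acid oxidation genes 2 negative, of 9 BMP targets 1 negative and of 9 epithelial markers 1 negative. Pmaip1, a pro-apoptotic p53 target, rose in WTCM from 27.5 to 30.1 CPM to 36.4 to 41.2 and fell in APCCM from 40.9 to 46.8 CPM to 34.7 to 37.8 (interaction 0.68 ± 0.09). Id1, a BMP target that blocks differentiation, fell in WTCM and rose in APCCM (interaction -0.70 ± 0.16, adjusted p = 0.0057). Ppara, the nuclear receptor for fatty acids, did the same (interaction -0.46 ± 0.08). Leaving out single libraries moved several of these counts. The unfolded protein response count was 5 without APCCM day 2 replicate 1 and 0 without WTCM day 2 replicate 1, APCCM day 4 replicate 1 or WTCM day 4 replicate 1. Of its 2 calls Creld2 alone was lost without APCCM day 2 replicate 2 or 3, WTCM day 2 replicate 2, APCCM day 4 replicate 2, or WTCM day 4 replicate 2 or 3, and Calr was kept there. The positive retinoid calls, Bco1 and Rdh7, were both lost without APCCM day 2 replicate 2 or WTCM day 2 replicate 1. Bco1 alone was lost without APCCM day 2 replicate 1, WTCM day 2 replicate 2 or APCCM day 4 replicate 2, and Rdh7 alone without WTCM day 2 replicate 3, APCCM day 4 replicate 1 or 3, or WTCM day 4 replicate 2 or 3. The negative retinoid count was 2 without WTCM day 4 replicate 1. The ribosome biogenesis calls, Nolc1 and Nop56, were both lost without APCCM day 4 replicate 2, and Nolc1 alone without APCCM day 2 replicate 1, WTCM day 2 replicate 1 or 3, APCCM day 4 replicate 3, or WTCM day 4 replicate 1 or 3. The epithelial call, Cdx2, was lost without APCCM day 2 replicate 3, WTCM day 2 replicate 1 or 3, or APCCM day 4 replicate 1 or 2, while that count was 3 without APCCM day 2 replicate 2 and 2 without WTCM day 2 replicate 2. The negative p53 call, Cdkn1a, was lost without WTCM day 2 replicate 1, and that count was 2 without APCCM day 2 replicate 2 or WTCM day 4 replicate 1 or 3. A positive fatty acid oxidation gene was called without APCCM day 2 replicate 3, APCCM day 4 replicate 1 or WTCM day 4 replicate 3, and 1 was called by DESeq2.

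Proliferation genes had no called interaction. Of 20 G2/M genes, 20 fell with day in WTCM and 17 in APCCM (15.3% and 15.9% of all genes). The median change was -0.32 and -0.28, none was called in the interaction by edgeR or DESeq2, and 3 had an unadjusted p under 0.05. None of 20 G1/S genes was called by either tool and 1 had an unadjusted p under 0.05. The fetal-like list (10 tested), the Notch list (12) and the mitochondrial genome (11) had no call by either tool and no unadjusted p under 0.05. Of the MHC (10), tuft cell (9) and heat shock (9) lists, none was called by either tool and 4, 1 and 1 had an unadjusted p under 0.05. Without a single library 1 MHC gene was called (APCCM day 2 replicate 1, APCCM day 4 replicate 2 or WTCM day 4 replicate 2) and 1 Notch gene (WTCM day 4 replicate 2). A count of 0 calls does not show that the courses were equal. The counts at an unadjusted p under 0.05 have no share of all genes beside them and are not read as results about the lists. The plot of list medians sets the day change of each list in WTCM beside that in APCCM.

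**Figure D5:**
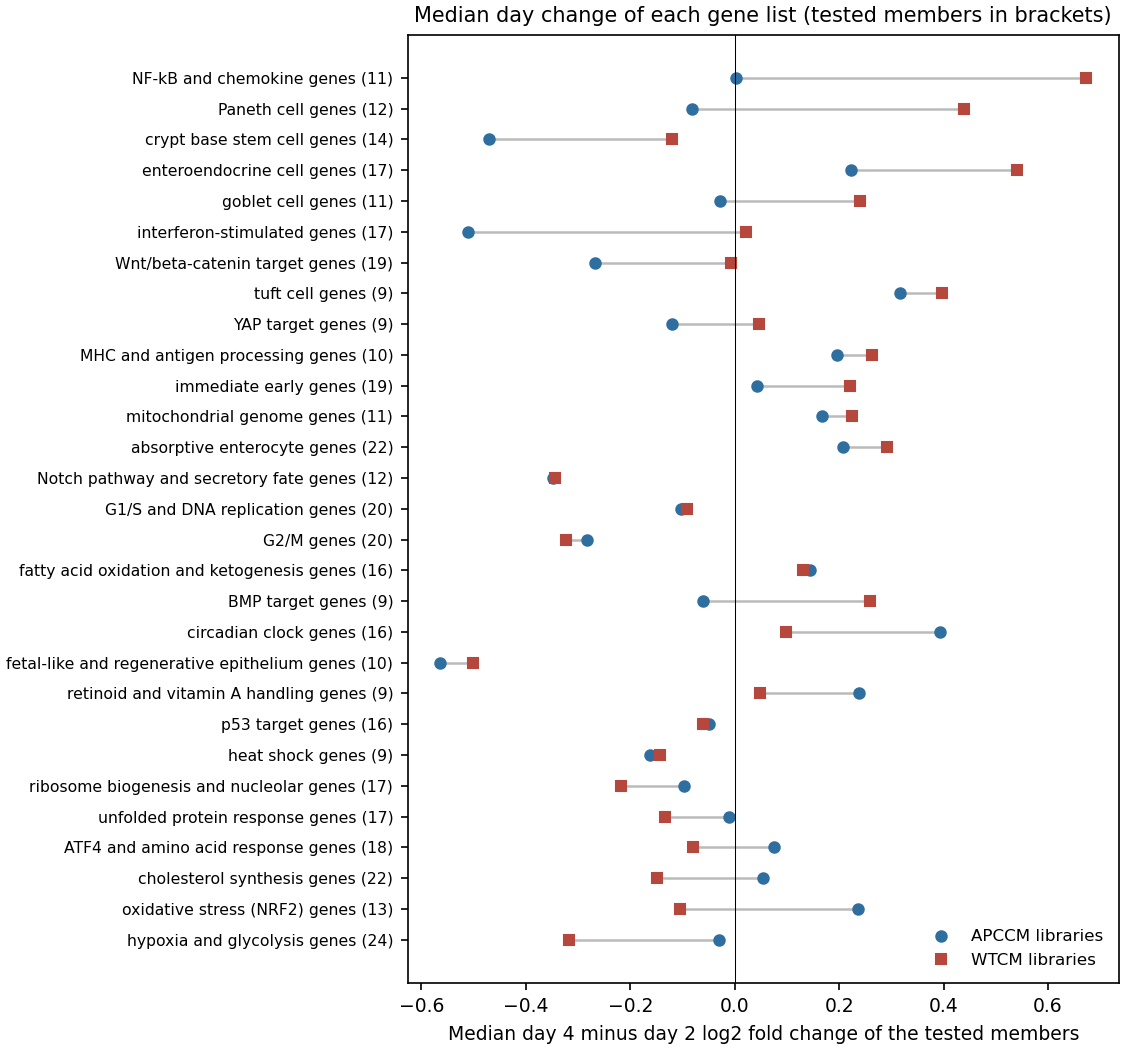
Median day 4 minus day 2 log2 fold change (x axis) of the tested members of each gene list (y axis, number in brackets) in the APCCM libraries (circles) and WTCM libraries (squares), ordered by the median interaction. The gap is widest for the NF-kB, interferon (no member called) and Paneth lists, and the markers nearly coincide for the G1/S, G2/M and Notch lists.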

How the data were processed

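For each library the authors deposited raw counts, whole numbers for 46078 Ensembl genes, with 5 summary lines. Reads were handled with HTSeq 0.6.1p1, HISAT2 2.1.0 and Trimmomatic 0.36 and build GRCm38, per the submitters' processing notes. Which strand was counted is not given in the sources used here. Reads of overlapping antisense genes therefore cannot be told apart, and reads with several alignments (26.5 to 33.3% of reads) are in no gene. The summary lines were left out.

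Symbols and GRCm38 coordinates came from GENCODE M21 (98% of identifiers). A single edgeR 4.0.16 quasi-likelihood fit (limma 3.58.1, R 4.3.3) of the 12 conditioned medium libraries in 4 groups used TMM scaling and filterByExpr. The filter kept 14970 genes, and the fit left 8 residual degrees of freedom. The typical variation between replicates beyond counting noise was 5.33%, which may be technical. Genes were called at a Benjamini-Hochberg adjusted p under 0.05 over all tested genes. CPM values are scaled with TMM, and a standard error is the log2 fold change over the square root of F. The script was tested on simulated data. Alternatives were other scalings and filters, DESeq2 1.42.0, a fit of all 16 libraries, other thresholds and leaving out single libraries.

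The members, gene lists and classes were chosen with earlier results of these data known. Genes were named by a rule, as called genes with a proper symbol and a group mean of at least 5 CPM that had the 8 largest interactions in each direction, the 3 smallest p in each class of 10 or more, or up to 4 of the smallest p in each list, plus Apc, Notum, Axin2, Nkd1 and Lgr5. Other list members and the genes said to be so were chosen after their values were seen.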

Additional observations from a re-analysis of the deposited data

Results flagged for a closer look

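The 2 labels differed in their day change, by a test of that difference, in 641 genes. Among the genes named by the size of the interaction, 16 carry it, and the values are log2 fold changes of WTCM minus APCCM. It was positive for Nos2 (2.34), Ifit1bl1 (1.96), Tnf (1.72), Depp1 (1.65), Ccl20 (1.61), Nox1 (1.60), Edn1 (1.45) and Duox2 (1.40). It was negative for Upk3b (-1.49), Ppp1r3b (-1.46), Cyp2c29 (-1.42), Ciart (-1.30), Slc28a3 (-1.27), Chac1 (-1.26), Ankrd37 (-1.24) and Gstm3 (-1.17).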

How the results depend on the processing

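No called named gene changed direction under any of 19 alternatives, and of the 84 called ones 63 kept their call in all of them. Apc, which was not called, lay near 0 and changed sign, with estimates from -0.0297 to 0.0692. The interaction count was 612 with DESeq2-type size factors, 633 with DESeq2, 778 with no filter, 651 with a stricter filter and 652 without histone, small RNA, mitochondrial and Gm26917 counts. It was 382 in a fit of all 16 libraries (222 positive, 160 negative), where 375 of the 641 remained. Without single libraries it ranged from 442 (without WTCM day 4 replicate 1, 427 of them shared with the 641) to 646. An adjusted p under 0.01 left 320 (190 positive, 130 negative), 3086 for day in WTCM, 2206 for label on day 2 and 2074 for label on day 4. Adding a 2-fold limit left 50 (28 positive, 22 negative), 350 and 402 for day in WTCM and APCCM, and 294 and 265 for label on days 2 and 4. No pairing by replicate number was seen, which does not show that the libraries were unpaired. Deviations of same-numbered libraries correlated between -0.0679 and 0.0657 over 18 pairs, and those of other libraries between -0.0859 and 0.0563 over 36. The fit with a replicate block called 663 genes, 616 of them shared. Whether depth bears on genes near 1 CPM was not tested.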
